A study of Mus musculus with 8 samples.

Results

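The nuclear genes of oxidative phosphorylation were followed through germinal centre and resting B cells of the mouse. Members were all genes whose symbol begins with Nduf, Cox4 to Cox8, Atp5 or Uqcr, together with Sdha, Sdhb, Sdhc, Sdhd, Cycs and Cyc1, read from probe sets that name 1 gene only. This gave 73 genes on 101 probe sets, of 8252 genes named in this way on 12488 probe sets. The probe set with the highest mean over all arrays stood for its gene. By respiratory complex there were 31 genes of complex I, 4 of complex II, 8 of complex III, 15 of complex IV and 14 of complex V, and cytochrome c (Cycs).

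Expression was read on 8 Affymetrix arrays, 2 per group of sorted B cells in 4 groups, and every donor mouse was an F1 hybrid labelled QMxB6. QM mice carry a rearranged immunoglobulin heavy chain gene, so that most of their B cells recognise the hapten NP. TI day 4 cells were GL7+ B220+ B cells sorted 4 days after 30 µg of NP on the polysaccharide Ficoll, an antigen that needs no T cell help (pools of 4 and 10 mice). TD day 10 cells carried the same surface markers and were sorted 10 days after 50 µg of NP on chicken gamma-globulin in alum with killed B. pertussis, given without earlier priming (pools of 6 and 6 mice). TD day 4 cells, also GL7+ B220+, came from mice primed with 50 µg of that carrier protein in alum with killed B. pertussis and given 50 µg of soluble NP-carrier 5 weeks after priming, 4 days before the sort (pools of 6 and 9 mice). Resting cells were GL7- B220+ B cells of unimmunised mice (pools of 6 and 9 mice). Antigen, priming and day differ together between the germinal centre groups, so their parts in any difference cannot be told apart.

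Oxidative phosphorylation takes place in the inner mitochondrial membrane. Complexes I and II take electrons from NADH and succinate, complex III passes them to cytochrome c, complex IV hands them to oxygen, and complex V makes ATP from the proton gradient that complexes I, III and IV build. Complexes I, III, IV and V hold subunits encoded by mitochondrial DNA as well, which are not among the members, and around these core subunits sit many small accessory ones. Germinal centre B cells divide fast, and dividing lymphocytes are known to use both glycolysis and mitochondrial respiration.

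Median intensity ranged over the arrays only from 77 to 89 units. With 2 arrays a group, precision is limited by their number. Of 6 B cell markers 5 had a probe set naming them alone, all 5 above the detection floor of 81 intensity units in every group. They summed to 19039 to 22726 on the germinal centre arrays and 26777 to 30820 on the resting arrays. Cd79a (9702 and 7003, against 4405 to 5621) and Cd79b (10557 and 9614, against 4979 to 7796) were higher in resting. So were Cd22 and Pax5, while Ms4a1 overlapped. Bcl6, the repressor that germinal centre B cells need, read 846 and 1034 in TI day 4, 1475 and 1407 in TD day 10, 1409 and 1236 in TD day 4, and 452 and 438 in resting. Gcsam, another germinal centre gene, read 156 and 131 in TI day 4, 768 and 501 in TD day 10, 753 and 661 in TD day 4, and 154 and 101 in resting, so that TI day 4 overlapped with resting. The 4 measured of 5 germinal centre markers summed to 2339 to 2524 in TI day 4, 3492 to 4023 on the TD arrays and 1385 to 1698 in resting. The 6 measured of 8 red cell precursor markers summed to 2065 to 3682 on the germinal centre arrays, with Alas2 under the floor there, and to 23951 to 26703 on the resting arrays. Most of the resting sum was Hba-a1 (15550 and 13751) and Hbb-b2 (8744 and 7985). Car2 was also higher in resting (423 and 455, against 18 to 131), while Klf1 overlapped. Slc4a1 read 1700 and 2317 in TI day 4, 221 to 419 on the TD arrays, and 724 and 707 in resting. The 8 neutrophil markers summed to 1734 to 2823 on the germinal centre arrays and 6542 to 6675 on the resting arrays, with Ngp under the floor in every group. Most of the resting sum was S100a8 (2833 and 3279, against 169 to 938) and Camp (1721 and 1454, against 539 to 972). S100a9 and Ltf were also higher in resting, while Elane and Lcn2 overlapped. Mpo was lower in resting (114 and 119, against 123 to 182). The 5 plasma cell markers summed to 9726 to 12923 in TI day 4, 2581 to 3932 on the TD arrays and 1919 to 1965 in resting. Jchain (7347 and 9356) and Xbp1 (2072 and 2951) made up most of the TI day 4 sum. Irf4 in TI day 4 overlapped with resting (125 and 516, against 292 and 511). Prdm1 was under the floor in TI day 4, TD day 4 and resting, and Sdc1 on every array but 1 of TI day 4 (106). The 8 macrophage markers summed to 4915 to 5716 in TI day 4, 1346 to 2223 on the TD arrays and 2724 to 2843 in resting, with Adgre1 under the floor in every group. Most of the TI day 4 sum was Apoe (4213 and 3371), while C1qa read 130 and -13 in TI day 4, against 708 and 597 in resting. The 4 markers of cycling cells summed to 5546 to 7211 on the germinal centre arrays and 1333 to 1384 on the resting arrays, with Mki67 and Top2a under the floor in resting. Of the 6 measured T cell markers Cd3e, Cd3d, Cd8a and Thy1 were under the floor in every group. Cd3g read 62 to 109 over all arrays. Cd4 was above the floor on every array, at 366 and 382 in TI day 4 and 422 to 710 on the TD arrays. In resting it read 292 and 339.

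Values under 81 intensity units, the 50th percentile of all values, were set to that floor before log2 was taken, and a probe set was tested when it exceeded the floor on at least 2 arrays. Of the 73 members 67 were tested, and 56 were above the floor on all 8 arrays. Atp5j2, Cox6a2, Cox8a, Ndufa12, Ndufaf1 and Ndufs4 lay at or near the floor and were not tested. A gene was called when limma's test gave a Benjamini-Hochberg adjusted p under 0.05 over all 7253 probe sets tested.

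Set against resting B cells, the mean of the germinal centre groups was higher for a subset of the respiratory chain genes, spread over all complexes. In TI day 4 alone the called members were all of complexes IV and V. In the mean of the 3 groups 17 of the 67 tested members rose and 1, Ndufa3, fell. Over all tested probe sets 13.2% were called in the same comparison, 7.73% higher and 5.50% lower. The largest called rise belonged to Atp5j, a part of the stalk that holds the head of ATP synthase in place. The median log2 difference over all 73 members was 0.18, beside 0.00 over all probe sets, and the SD of the members' median between replicate arrays was 0.093. Without resting replicate 2 that median was 0.04, beside -0.06 over all probe sets. Leaving out resting replicate 1, or any TD or TI array, gave fewer than 18 calls, and the members then called were not always among the 18. In RNA pooled from many cells, fewer expressing cells and less RNA per cell cannot be told apart. The part that the B cell, red cell precursor, neutrophil and cycling markers play in these differences was not tested.

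**Figure D1:**
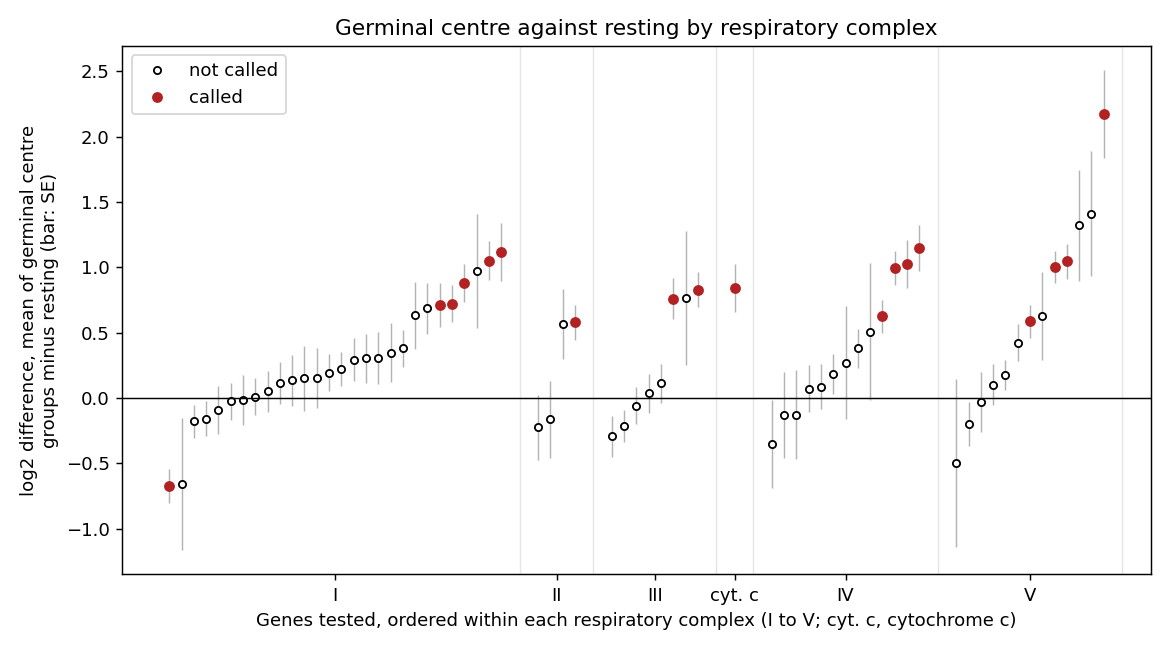
log2 difference between the mean of the 3 germinal centre groups and resting (y axis, bar: SE) for the 67 tested members, ordered by size within each respiratory complex (x axis, cyt. c is cytochrome c). Filled red points are called by limma and open points are not; called genes lie in every complex, with Ndufa3 in complex I the only called point below 0 and Atp5j in complex V the highest at 2.17.

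Promoters of the members were read, since several respiratory genes are known to be driven by nuclear respiratory factor 1 (NRF-1) and by ETS family factors. Of the 73 members 59 had an entry in the RefSeq promoter table (build GRCm38.p6), which holds 250 bases before and 50 after each start. The NRF-1 motif searched was GCATGCGC and its reverse complement GCGCATGC. It was in promoters of 11 of the 59 members (18.6%) and in 3.05% of all 27025 genes, counting a gene when any listed start held the motif. The ETS motif searched was CCGGAAG and its reverse complement CTTCCGG, found in 16 of the 59 members (27.1%) and in 9.93% of all genes. Among the 12 called-higher members with a promoter, 2 (16.7%) held the first motif (Cycs and Sdhb), beside the 18.6% of all members. The second was in 4 (33.3%: Atp5j, Atp5md, Ndufb6 and Sdhb), beside 27.1% of all members. Members' promoters had a median GC content of 58.7%, against 52.75% over all genes, and both motifs are rich in G and C. A match describes the letters and not a bound site. The first 3 promoters printed here belong to genes called higher in the germinal centre mean, and Uqcrc1 is shown because it holds the NRF-1 letters on both strands, overlapping, while its signal lay lower on all 6 germinal centre arrays than on both resting arrays. They are Cycs at chr6:50566520-50566819 (minus strand, motif 60 bases before the start), Sdhb at chr4:140961021-140961320 (plus strand, NRF-1 letters 54 before and ETS letters 7 after the start), Atp5j at chr16:84834927-84835226 (minus strand, ETS letters 61 before the start) and Uqcrc1 at chr9:108936398-108936697 (plus strand, letters 31 and 33 bases after the start). RefSeq lists a second Atp5j start, at chr16:84835576-84835875, whose window holds neither motif. Each is written 5′ to 3′ along its gene, with motif letters in capitals.
Cycs: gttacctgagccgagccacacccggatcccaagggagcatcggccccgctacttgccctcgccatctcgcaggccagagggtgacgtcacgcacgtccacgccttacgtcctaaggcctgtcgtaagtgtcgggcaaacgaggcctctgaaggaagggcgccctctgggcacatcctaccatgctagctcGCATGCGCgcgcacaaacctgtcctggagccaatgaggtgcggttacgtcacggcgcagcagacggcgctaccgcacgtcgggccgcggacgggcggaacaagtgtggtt
Sdhb: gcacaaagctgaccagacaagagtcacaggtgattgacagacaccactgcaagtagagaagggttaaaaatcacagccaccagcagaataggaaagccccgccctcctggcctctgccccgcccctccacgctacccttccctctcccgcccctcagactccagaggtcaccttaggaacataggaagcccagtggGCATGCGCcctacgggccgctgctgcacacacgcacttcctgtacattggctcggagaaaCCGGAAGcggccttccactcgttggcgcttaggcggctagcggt
Atp5j: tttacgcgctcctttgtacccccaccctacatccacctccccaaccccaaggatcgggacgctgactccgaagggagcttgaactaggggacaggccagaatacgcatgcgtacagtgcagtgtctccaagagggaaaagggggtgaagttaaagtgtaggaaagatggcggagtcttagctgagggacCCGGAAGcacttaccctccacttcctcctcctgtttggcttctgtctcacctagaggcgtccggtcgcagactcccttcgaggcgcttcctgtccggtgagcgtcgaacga
Uqcrc1: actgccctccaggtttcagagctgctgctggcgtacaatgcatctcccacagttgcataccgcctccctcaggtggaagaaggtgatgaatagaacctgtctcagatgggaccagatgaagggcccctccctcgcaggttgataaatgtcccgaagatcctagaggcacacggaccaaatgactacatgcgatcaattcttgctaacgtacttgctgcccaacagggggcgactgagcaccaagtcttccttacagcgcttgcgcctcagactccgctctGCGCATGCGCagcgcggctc

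Complex I was higher in a few of its genes. Of 31 members 28 were tested, 5 rose and 1 fell in the germinal centre mean, and the median log2 difference over all 31 was 0.15. Of the 4 core subunits, which carry the electron path from NADH, Ndufs1 and Ndufv2 rose. Ndufs1, the largest iron-sulfur subunit, read 261 and 206 in TI day 4, 458 and 485 in TD day 10, 409 and 476 in TD day 4, and 170 and 182 in resting. All 6 germinal centre arrays lay above resting, and all 4 TD arrays above both TI arrays. The mean log2 difference from resting was 1.05 ± 0.15 (SE), or 2.07-fold (adjusted p = 0.0077 by limma). Ndufv2, an iron-sulfur subunit of the NADH-oxidising tip, read 503 and 629 in TI day 4, 580 and 583 in TD day 10, 843 and 780 in TD day 4, and 325 and 375 in resting, with no overlap between germinal centre and resting arrays. It was 1.84-fold higher (log2 0.88 ± 0.15, adjusted p = 0.013). A second, dim Ndufv2 probe set differed by 0.15 on the log2 scale and was not called (adjusted p = 0.68). The other core subunits were not called. Ndufv1, which binds NADH, differed by -0.03 ± 0.14, and Ndufs3, which lies near the quinone site, by 0.22 ± 0.13.

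Among the 25 accessory subunits of complex I, 3 rose and 1 fell. Ndufc1, in the membrane arm, read 582 and 636 in TI day 4, 657 and 751 in TD day 10, 689 and 592 in TD day 4, and 390 and 230 in resting. Every germinal centre array was above the higher resting array, and the difference was 1.11 ± 0.22 on the log2 scale (2.17-fold, adjusted p = 0.024). Ndufb6, also of the membrane arm, read 255 and 247 in TI day 4, 320 and 349 in TD day 10, 365 and 299 in TD day 4, and 170 and 198 in resting. Here too the groups did not overlap, and the TD arrays were all above the TI arrays. The rise was 1.65-fold (log2 0.72 ± 0.14, adjusted p = 0.025). Ndufb5, another membrane arm subunit, read 1324 to 1652 over the 6 germinal centre arrays, and 801 and 1055 in resting. It was 1.64-fold higher (log2 0.71 ± 0.17, adjusted p = 0.041), and its probe set belongs to a type whose probes can match several transcripts.

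Ndufa3 went the other way. This membrane arm accessory subunit read 816 and 835 in TI day 4, 626 and 742 in TD day 10, 813 and 767 in TD day 4, and 1280 and 1158 in resting. All 6 germinal centre arrays lay below both resting arrays, and the level fell by 0.67 ± 0.13 on the log2 scale (adjusted p = 0.023). Its probe set can also match several transcripts, and the second Ndufa3 probe set, at 21 to 61 on the germinal centre arrays and 80 and 106 in resting, was too dim to test. The assembly factors Ndufaf1 and Ndufaf4, which are needed to build the complex but are not part of it, had readings of 51 to 120 on every array and no call. Ndufa5, a matrix arm accessory subunit, read 334 to 482 on the germinal centre arrays, and 121 and 398 in resting. Its log2 difference of 0.97 ± 0.44 was not called (adjusted p = 0.23).

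Complex II, succinate dehydrogenase, is the entry point shared with the citric acid cycle, and 1 of its 4 genes rose. Sdhb, the iron-sulfur subunit whose promoter is shown above, read 1094 and 1261 in TI day 4, 1295 and 1300 in TD day 10, 1290 and 1134 in TD day 4, and 871 and 774 in resting. No germinal centre array overlapped with resting, and the rise was 1.49-fold (log2 0.58 ± 0.14, adjusted p = 0.041). Its probe set is of a kind shared between transcripts. Sdha, the flavoprotein subunit, lay between 44 and 160 on all arrays and differed by -0.16 ± 0.30. Sdhd, a membrane anchor, read 730 to 858 on the germinal centre arrays, and 366 and 762 in resting, and was not called (log2 0.57 ± 0.27, adjusted p = 0.27).

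In complex III the called rises were among the small subunits. Of 5 such genes 2 rose, with a median log2 difference of 0.76, and of the catalytic and core proteins (Cyc1, Uqcrc1 and Uqcrc2) 0 of 3 were called by limma and 0 had an unadjusted p under 0.05 in the germinal centre mean. Uqcrb, a small subunit on the matrix side, read 392 and 467 in TI day 4, 591 and 554 in TD day 10, 679 and 610 in TD day 4, and 305 and 304 in resting. The resting arrays were nearly equal and below all others, and the TD arrays were all above the TI arrays. The rise was 1.77-fold (log2 0.83 ± 0.13, adjusted p = 0.012), again at a probe set that can match several transcripts. Uqcr10, a small subunit beside cytochrome c1, read 1233 to 1658 on the germinal centre arrays, and 758 and 963 in resting, a rise of 1.69-fold (log2 0.76 ± 0.16, adjusted p = 0.027). The other small subunits overlapped with resting. Uqcrh, the brightest, read 1719 to 2197 against 2068 and 2036 in resting, and Uqcrq 1260 to 1671 against 1340 and 1590. Uqcr11 read 155 to 346, against 28 and 271 in resting. Cyc1, the cytochrome c1 subunit that hands electrons to cytochrome c, read 3455 and 3699 in TI day 4, 3402 and 2506 in TD day 10, 3738 and 3541 in TD day 4, and 4005 and 4243 in resting. It lay below resting on all 6 germinal centre arrays, yet its difference of -0.29 ± 0.16 was not called (adjusted p = 0.32). The core protein Uqcrc1 read 1269 to 1513 on the germinal centre arrays, and 1674 and 1552 in resting, and was not called either (log2 -0.22 ± 0.12, adjusted p = 0.33).

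Cytochrome c, the mobile carrier between complexes III and IV, was near the floor in TI day 4 and in resting. Cycs read 101 and 60 in TI day 4, 203 and 150 in TD day 10, 243 and 200 in TD day 4, and 53 and 88 in resting. The TD arrays lay above all TI and resting arrays, and the TI arrays overlapped with resting. With values under 81 held at the floor, the mean of the germinal centre groups differed from resting by 0.84 ± 0.18 on the log2 scale (adjusted p = 0.032). With a floor at the 60th percentile the difference was 0.30 (adjusted p = 0.26), and over all alternatives the adjusted p lay between 0.032 and 0.26.

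In complex IV, 4 of the 9 forms that are expressed in most tissues rose (8 were tested), and all 4 are small nuclear-encoded subunits around the catalytic core. Cox6c read 3927 and 4309 in TI day 4, 4751 and 5149 in TD day 10, 4634 and 4386 in TD day 4, and 1677 and 2468 in resting. It was above resting on all 6 arrays, 2.22-fold on average (log2 1.15 ± 0.18, adjusted p = 0.01), at a probe set that can match several transcripts. A second Cox6c probe set, at 42 to 94 on all arrays, was not called (adjusted p = 0.75). Cox7a2, which also takes part in supercomplexes, read 1055 and 1160 in TI day 4, 1342 and 1519 in TD day 10, 1449 and 1323 in TD day 4, and 637 and 665 in resting. The 3 sets of germinal centre arrays were all well clear of resting, with a rise of 1.99-fold (log2 1.00 ± 0.13, adjusted p = 0.0054).

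Cox7b read 778 and 851 in TI day 4, 1119 and 898 in TD day 10, 1099 and 1054 in TD day 4, and 394 and 564 in resting, and was 2.03-fold higher (log2 1.02 ± 0.18, adjusted p = 0.017). Cox5b, a subunit that binds zinc, read 1896 to 2221 on the germinal centre arrays, and 1295 and 1408 in resting, and was 1.54-fold higher (log2 0.62 ± 0.13, adjusted p = 0.027). For both genes the germinal centre and resting arrays did not overlap. The larger subunit Cox4i1 was not called (log2 0.09 ± 0.17). Of the 5 forms known mainly from muscle, testis or other single tissues (Cox6a2, Cox6b2, Cox7a1, Cox8b and Cox8c) 0 were called by limma and 0 had an unadjusted p under 0.05. The muscle form Cox6a2 was below the floor on every array, as was the widespread form Cox8a.

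Complex V had the highest median difference of the multi-gene complexes, 0.50 on the log2 scale over 14 genes, with 4 of 13 tested members called higher. Atp5j, coupling factor F6 of the peripheral stalk, read 374 and 554 in TI day 4, 720 and 353 in TD day 10, 532 and 482 in TD day 4, and 85 and 138 in resting. Every germinal centre array exceeded both resting arrays, although the TD day 10 arrays lay far apart. The rise was 4.51-fold (log2 2.17 ± 0.34, adjusted p = 0.01). The other stalk genes had wide errors. Atp5o, which joins the stalk to the head, read 436 to 740 on the germinal centre arrays, and 124 and 442 in resting (log2 1.41 ± 0.48, adjusted p = 0.12), and Atp5pb differed by 0.63 ± 0.34 (adjusted p = 0.32).

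The small membrane subunits of complex V, several of which act in joining ATP synthases into dimers, held 2 of the called rises. Atp5md read 1884 and 2030 in TI day 4, 2275 and 2276 in TD day 10, 2158 and 2057 in TD day 4, and 994 and 1115 in resting. Atp5mpl read 971 and 923 in TI day 4, 1166 and 1112 in TD day 10, 1192 and 1084 in TD day 4, and 473 and 568 in resting. For both genes all germinal centre arrays were above resting and all TD arrays above TI. Atp5md was 2.00-fold higher (log2 1.00 ± 0.12, adjusted p = 0.0047), at a probe set that can match several transcripts, and Atp5mpl 2.06-fold (log2 1.05 ± 0.13, adjusted p = 0.0053). Atp5k, another of these subunits, read 272 to 503 on the germinal centre arrays, and 76 and 226 in resting, and was not called (log2 1.32 ± 0.43, adjusted p = 0.11). In the catalytic F1 head Atp5a1, the alpha subunit, rose: it read 3610 to 4190 on the germinal centre arrays, and 2715 and 2490 in resting (1.50-fold, log2 0.59 ± 0.12, adjusted p = 0.03). The gamma subunit Atp5c1 was not called (log2 0.42 ± 0.14, adjusted p = 0.12), and the c ring genes Atp5g1 and Atp5g2 differed by -0.03 ± 0.23 and 0.10 ± 0.16.

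**Figure D2:**
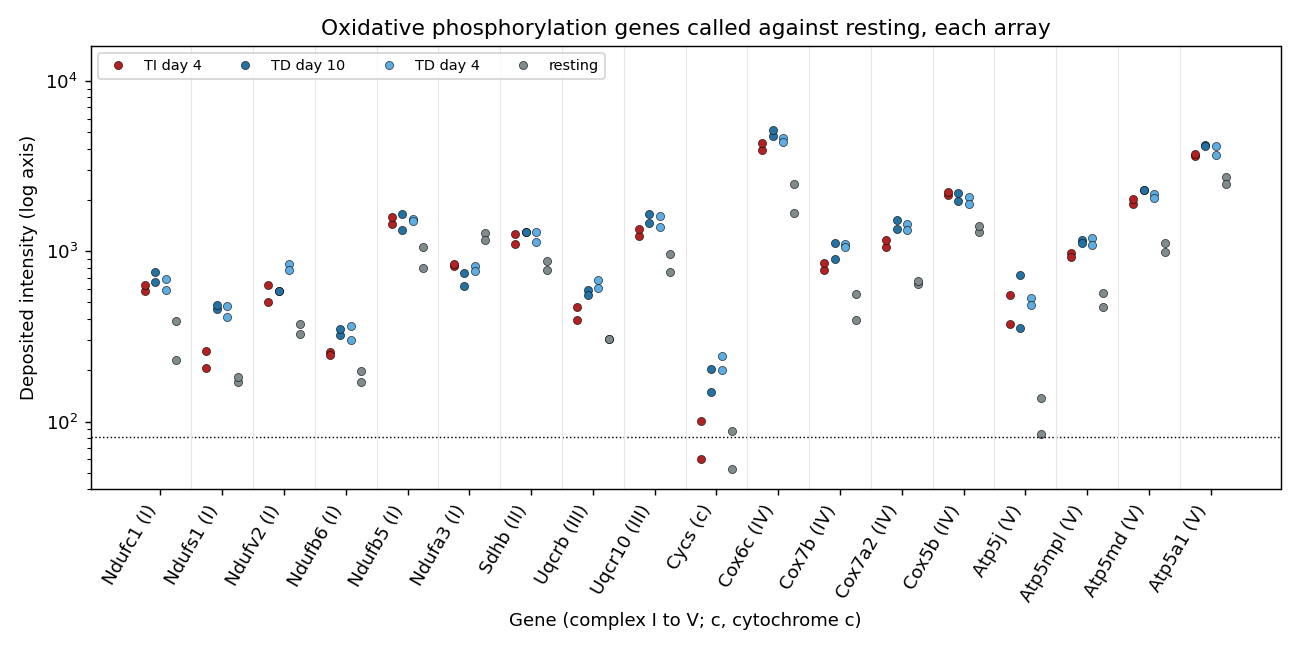
Deposited intensity (y axis, log scale) of the 18 members called in the germinal centre mean on each of the 8 arrays, ordered by complex (x axis); colours give the group and the dotted line the floor of 81. For 16 of the 17 genes called higher the resting arrays (grey) lie below all germinal centre arrays, the exception being Cycs, and for Ndufa3 they lie above.

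Over all 73 members, every germinal centre array was above both resting arrays for 22 genes, a pattern that 10.9% of all tested probe sets had. Every germinal centre array was below both resting arrays for 4 members (Cyc1, Ndufa3, Ndufa7 and Uqcrc1), a pattern of 12.1% of tested probe sets. The resting arrays differed from each other more than the other pairs did. The SD of the log2 difference between replicate arrays over the members was 0.319 in TI day 4, 0.381 and 0.420 in the TD groups of day 10 and day 4, and 0.626 in resting, beside 0.545, 0.552, 0.501 and 0.694 over all tested probe sets in that order. In resting, replicate 1 was under 1/2 of replicate 2 for 5 members (Atp5k, Atp5o, Ndufa5, Sdhd and Uqcr11), and replicate 2 under 1/2 of replicate 1 for Cox5a, Cox8b and Ndufa1. The ratio of 3' to 5' signal of the Gapdh control, a measure of RNA or labelling quality, was 0.867 in resting replicate 1 and 1.59 in resting replicate 2, and with this ratio as a covariate 17 members were called in the germinal centre mean. Over the 20 alternatives run for that comparison, Atp5md, Atp5mpl, Cox7a2, Ndufs1 and Uqcrb were called in all, Atp5a1 and Uqcr10 in 10, Ndufb5 and Sdhb in 8 and Cycs in 5. With the mean of all probe sets of a gene in place of the brightest, the log2 differences and adjusted p were 0.36 and 0.11 for Cox6c, 0.36 and 0.12 for Ndufb6, 0.52 and 0.062 for Ndufv2, and -0.43 and 0.068 for Ndufa3. Averaging floored values had to shrink these differences, since the added probe sets lay near or under the floor. They read 17 to 45 for Ndufb6, 42 to 94 and -77 to 10 for Cox6c, 57 to 115 for Ndufv2 and 21 to 106 for Ndufa3. Without resting replicate 2, Ndufc1 differed by 0.73 (adjusted p = 0.059).

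Medians over the genes of a complex were taken on the log2 intensity scale. A median of levels can move by more than the median of the differences taken gene by gene. In the germinal centre mean against resting the latter was 0.15 for complex I, 0.07 for complex III and 0.50 for complex V. In complex III, 5 genes lay above resting and 3 below. For complex I the median over its 31 genes was 9.07 and 9.20 in TI day 4, 9.18 and 9.19 in TD day 10, 9.34 and 9.21 in TD day 4, and 8.84 and 8.64 in resting. For complex V it was 9.45 and 9.50 in TI day 4, 9.51 and 9.31 in TD day 10, 9.55 and 9.33 in TD day 4, and 8.93 and 9.15 in resting. In both complexes, all germinal centre arrays lay above both resting arrays. Both TD day 4 arrays were above the other germinal centre arrays for complex I, though the lower of them exceeded the higher TI day 4 array by less than the gap between replicates of either group, and for complex V these groups overlapped. Complex III medians ran from 10.28 to 10.54 on the germinal centre arrays, and were 10.16 and 10.26 in resting. For complex IV the TI day 4 medians of 9.19 and 9.00 overlapped with resting (9.06 and 8.87), while the TD arrays were above both at 9.22 to 9.37. For complex II, with 4 genes, the groups overlapped.

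**Figure D3:**
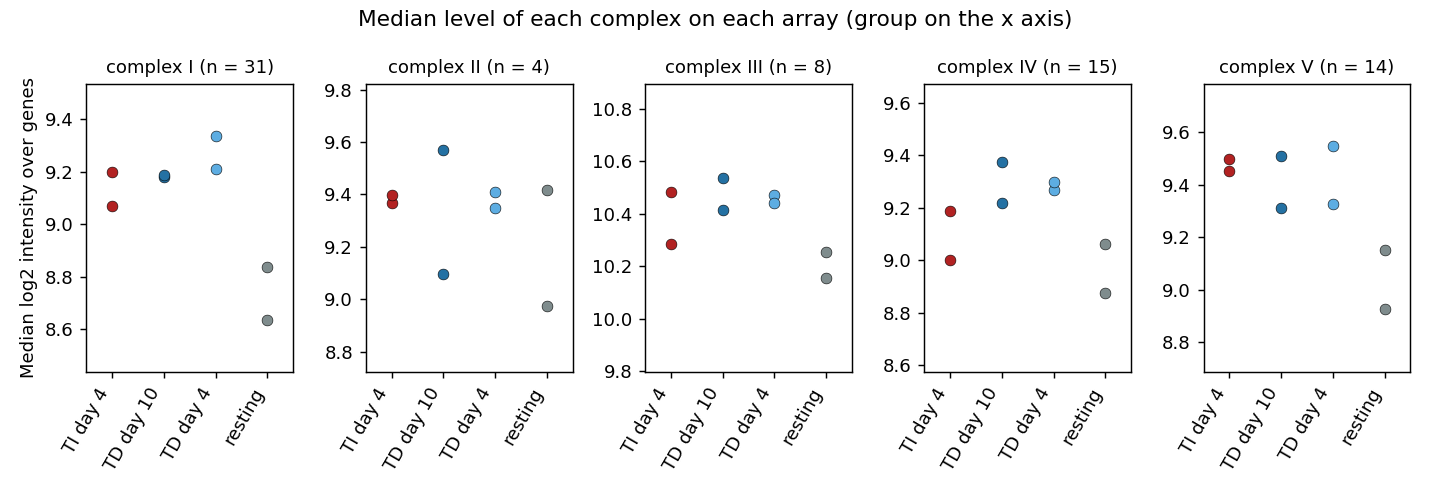
Median log2 intensity over the genes of each respiratory complex (y axis, log2 intensity units; 1 panel per complex) on each array, by group (x axis). Resting points lie below all germinal centre points for complexes I, III and V, and overlap with TI day 4 for complex IV and with all groups for complex II. Points are medians of levels, not of differences taken gene by gene.

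Taken one group at a time, the members differed from resting as follows, and the 3 comparisons share the same resting arrays. In TI day 4, 6 members were called higher and 0 lower by limma. Of all tested probe sets 9.40% were called, 5.42% higher and 3.98% lower. At an unadjusted p under 0.05, 19 members were higher and 1 lower, 20 of 67 tested, beside 22.9% of all tested probe sets. The 6 were Atp5j (log2 2.07 ± 0.41), Cox6c (1.02 ± 0.22), Atp5md (0.89 ± 0.15), Atp5mpl (0.87 ± 0.16), Cox7a2 (0.77 ± 0.16) and Cox5b (0.69 ± 0.16), all of complexes IV and V. The median over all 73 members was 0.16, beside -0.02 over all tested probe sets. The number of calls in TI day 4 was 3 without resting replicate 1, 1 without each TD day 4 array, 2 without each TD day 10 array and 0 without each TI day 4 array, and the median was 0.08 without resting replicate 2. TI day 4 also had the highest sums of plasma cell markers, through Jchain and Xbp1, and of macrophage markers, through Apoe. The part of these markers was not tested. Its Gapdh 3' to 5' ratios were 1.24 and 1.68, and with this ratio as a covariate 3 members were called.

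In TD day 10, 13 members rose and 1 fell, beside 10.9% of all tested probe sets called, 6.45% higher and 4.44% lower. The median over all members was 0.24, beside 0.04 over tested probe sets. The largest called rises were in Atp5j (log2 2.22 ± 0.41), Ndufs1 (1.42 ± 0.18, 2.68-fold, adjusted p = 0.007), Cox6c (1.28 ± 0.22) and Ndufc1 (1.23 ± 0.27). Ndufa3 fell by 0.84 ± 0.16 (adjusted p = 0.025). Calls numbered 9 without resting replicate 1, 7 without each TD day 4 array, 8 without each TI day 4 array and 3 without each TD day 10 array, and the median was 0.15 without resting replicate 2. Ndufs1 kept its call in all 21 alternatives tried for this comparison.

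In TD day 4, 11 members rose and 0 fell by limma, beside 9.42% of all tested probe sets called, 5.83% higher and 3.58% lower. At an unadjusted p under 0.05, 21 members were higher and 1 lower, beside 22.3% of tested probe sets. The median over all members was 0.21, beside -0.02 over tested probe sets. The largest called rises were in Atp5j (log2 2.23 ± 0.41), Cycs (1.38 ± 0.22, at least 2.61-fold with 1 resting array at the floor, adjusted p = 0.016), Ndufs1 (1.33 ± 0.18, 2.51-fold, adjusted p = 0.01) and Ndufv2 (1.22 ± 0.18, 2.32-fold, adjusted p = 0.012). Uqcrb was 2.11-fold higher (1.08 ± 0.16, adjusted p = 0.013). Calls numbered 1 and 0 without TD day 4 replicate 1 or 2 and 7 without each TI day 4 array, and the median was 0.06 without resting replicate 2.

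**Figure D4:**
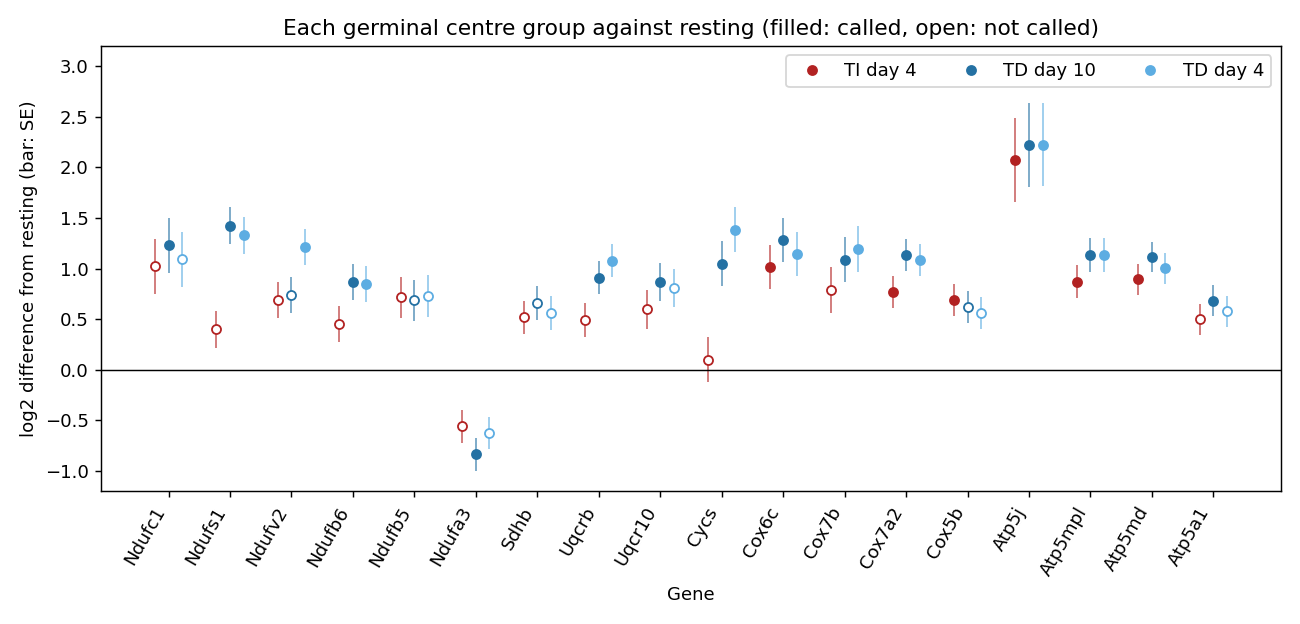
log2 difference from resting (y axis, bar: SE) of the 18 members called in the germinal centre mean (x axis), for each germinal centre group; filled points are called by limma and open points are not. Ndufs1 lies at 0.40 in TI day 4 and at 1.42 and 1.33 in TD day 10 and TD day 4, and Cycs at 0.10 in TI day 4 and at 1.05 and 1.38 in TD day 10 and TD day 4.

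Compared directly with either TD group, TI day 4 cells showed no called difference in any member. The lower germinal centre marker sums of TI day 4, given above, move with these comparisons, and their part was not tested. Against TD day 4, 0 of 67 tested members were called by limma, beside 1.45% of all tested probe sets (0.731% higher and 0.717% lower). At an unadjusted p under 0.05 there were 4 members, all lower in TI day 4, and this is a smaller share than the 14.4% of all tested probe sets. Against TD day 10, 0 members were called, beside 2.40% of tested probe sets (1.20% higher and 1.20% lower), and 8 had an unadjusted p under 0.05, 1 higher and 7 lower, beside 17.2% of tested probe sets. The median over all 73 members was -0.07 against TD day 4, beside -0.01 over all tested probe sets, and -0.14 against TD day 10, beside -0.08 over all tested probe sets. With the Gapdh 3' to 5' ratio as a covariate the second median was -0.04. Without TD day 4 replicate 1 the median against TD day 4 was 0.01, without TI day 4 replicate 1 it was 0.00, and that against TD day 10 was then -0.05.

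The genes with the smallest p in these comparisons were Ndufs1 and Cycs, whose values on each array are given above. In TI day 4, Ndufs1 differed by -1.02 ± 0.18 on the log2 scale from TD day 10 (adjusted p = 0.052) and by -0.93 ± 0.18 from TD day 4 (adjusted p = 0.075). The intervals of these differences (95%, from the fit) ran from -1.47 to -0.58 and from -1.37 to -0.48. Cycs, with 1 TI day 4 array at the floor, differed by -1.29 ± 0.22 from TD day 4 (adjusted p = 0.058) and by -0.95 ± 0.22 from TD day 10 (adjusted p = 0.10). With array weights Ndufs1 passed in both comparisons (adjusted p = 0.041 against TD day 4 and 0.038 against TD day 10) and Cycs against TD day 4 (adjusted p = 0.032), and with a floor at the 60th percentile Ndufs1 passed against TD day 10 (adjusted p = 0.032).

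Every TI day 4 array lay below every TD array for 18 of 73 members (24.7%), a pattern that 16.4% of tested probe sets had. Besides Ndufs1, Cycs, Ndufb6, Uqcrb, Atp5md and Atp5mpl, these were Atp5c1, Atp5g1, Atp5l, Cox6c, Cox7a2, Cox7a2l, Cox7b, Ndufb10, Ndufb8, Ndufv1, Sdha and Uqcr10. The reverse held for 4 members (Atp5d, Ndufa2, Ndufa3 and Uqcrc1), and for 13.1% of tested probe sets. Between TD day 10 and TD day 4, 0 members and 0 of all tested probe sets were called by limma (0%). At an unadjusted p under 0.05 there were 2 members, Ndufv2 and Ndufv3, both lower in TD day 10, beside 5.14% of tested probe sets, and the median was 0.02.

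Genes that work next to the respiratory chain gave a mixed picture in the germinal centre mean against resting, read against the same 7.73% higher and 5.50% lower of all tested probe sets. The adenine nucleotide carriers, which exchange ATP for ADP across the inner membrane, rose. Slc25a4 read 567 and 537 in TI day 4, 817 and 805 in TD day 10, 814 and 791 in TD day 4, and 339 and 407 in resting (log2 0.94 ± 0.13, adjusted p = 0.0071), and Slc25a5 rose by 0.95 ± 0.15 (adjusted p = 0.012). They were the 2 called of 8 tested carriers and porins. Of 10 tested glycolysis genes 6 rose and 0 fell, with a median log2 difference of 0.77 over 12 genes on the array. Pgk1, an ATP-forming enzyme of the pathway, rose by 1.04 ± 0.12 (adjusted p = 0.0044), and Pgam1 and Tpi1 by 1.00 ± 0.15 and 0.84 ± 0.13. In the citric acid cycle and pyruvate oxidation 2 of 16 tested genes rose, Fh1 (fumarase, 0.68 ± 0.12, adjusted p = 0.017) and Idh3a (0.79 ± 0.19, adjusted p = 0.048), and 0 fell, with a median of 0.08 over 18 genes.

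For the machinery that builds and maintains the complexes, most lists held few tested genes, and a difference between the lists was not tested. Over all tested probe sets 7.73% were called higher and 5.50% lower in this comparison. Of 13 tested assembly factors whose symbols lie outside the rule 3 rose, Higd1a, Tmem126a and Cox17, the copper carrier for complex IV (0.77 ± 0.18, adjusted p = 0.041). The median over the 17 on the array was 0, with 5 genes above 0 and 8 below. The mitochondrial ribosome and translation list had 7 higher and 1 lower of 56 tested, with a median of 0.07 over 61 genes. Mrpl21 rose by 0.89 ± 0.14 and Mrpl18 by 0.80 ± 0.13, and Mrpl24 fell by 0.62 ± 0.12 (adjusted p = 0.023). Of 18 tested import and protease genes 0 were called by limma, and 2 had an unadjusted p under 0.05, beside 25.8% of all tested probe sets. Of 9 regulators of mitochondrial biogenesis 1 rose, Ssbp1, which coats single-stranded mitochondrial DNA (0.62 ± 0.13, adjusted p = 0.032). Among 7 tested uncouplers and oxygen defence genes 1 fell, Gpx4, a lipid peroxidase (log2 -1.30 ± 0.28, adjusted p = 0.032).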

How the data were processed

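On 8 arrays, gene expression of sorted B cells was measured from total RNA, which per the labels was extracted with RNAzol and labelled with biotin in Affymetrix's standard way. The values are linear intensities as deposited by the authors, whole numbers of which 30.1% are 0 or below, and how they were computed and scaled is not stated in the labels or files. Depth does not apply to arrays, whose number sets the precision.

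Here values under 81, the 50th percentile, were set to 81 and log2 was taken, with no further normalization. After 66 control probe sets were left out, those above the floor on at least 2 arrays were tested (7253 of 12488). In limma 3.58.1 under R 4.3.3, the 4 groups were fitted together, with moderated variances (residual degrees of freedom 4, prior 2.20), two-sided tests and Benjamini-Hochberg adjustment within each of 7 comparisons. Samples were grouped by their titles, and each array is a separate pool of mice, so replicates are biological. Tables were made in Python 3.11.15. The fit was tested on simulated data for TI day 4 against TD day 4, in 10 draws with 200 changed probe sets each. The changed probe sets were drawn from all those tested. It called 21.9% of 2-fold and 66.8% of 4-fold changes, so a 2-fold difference in such a probe set would often be missed. Between replicates of these groups the members had an SD of 0.319 and 0.420, beside 0.545 and 0.501 over all tested. These shares need not hold for the members. On average 5.1 of 93.8 calls were false.

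The annotation names 1 gene for 10855 probe sets, several for 396 and none for 1237. Members, the lists of neighbouring pathways and the markers were chosen with earlier results of these data known. The text gives all called members, members with large differences or a pattern across arrays, and of each neighbouring list at most the 3 genes with the smallest p. Genes resembling the members in pattern were not sought, because the arrays fall into separate groups. A fold whose dimmer side had an array at the floor is given as at least that fold. Alternatives were a lower floor (40th percentile), a higher one (60th), a pseudocount, quantile or median scaling, no filter and a stricter filter, the mean over a gene's probe sets, a replicate block, a fit of the compared arrays alone, array weights, a robust trended prior, the Gapdh 3' to 5' ratio as covariate, and leaving out each array in turn.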

Additional observations from a re-analysis of the deposited data

Results flagged for a closer look

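Ndufv1, the complex I subunit that binds NADH, lay lower than the mean of resting on both TI day 4 arrays and higher on both TD day 10 arrays. It read 1774 and 1458 in TI day 4, 2105 and 2246 in TD day 10, 2025 and 1844 in TD day 4, and 2059 and 1802 in resting. The log2 difference from resting was -0.26 in TI day 4 and 0.17 in TD day 10. The direct comparison of TI day 4 with TD day 10 gave a log2 difference of -0.44 ± 0.18 (SE), which was not called (limma adjusted p = 0.28). The probe set naming Ndufs6 and Ndufs6b, not used for the members because it names several genes, read 805 to 1102 on the germinal centre arrays, and 633 and 575 in resting. Its log2 difference in the germinal centre mean was 0.72 ± 0.14 (limma adjusted p = 0.022), and at the second probe set of the same genes it was 0.71 ± 0.34 (adjusted p = 0.27). The probe set naming Ndufa11 and Ndufa11b read 469 to 633 on the germinal centre arrays, and 357 and 262 in resting, with a log2 difference of 0.80 ± 0.17 (adjusted p = 0.033). In both cases which of the named genes gave the signal cannot be told apart. In all, 10 probe sets named a member or a related gene together with another gene. With 2 arrays a group, single arrays were not screened as outliers.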

How the results depend on the processing

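No called member changed direction under the alternatives run, but the counts of called members moved. These counts are totals and can hold members that the main fit did not call. Against resting they were 6 (TI day 4), 14 (TD day 10), 11 (TD day 4) and 18 (germinal centre mean) as reported. With the floor at the 40th percentile they were 3 in TI day 4 and 8 in TD day 10. With array weights they were 2 for TI day 4, 8 for TD day 10 and 10 for the germinal centre mean, and 2 members passed for TI day 4 against TD day 4 and 1 for TI day 4 against TD day 10, where the 60th percentile floor also gave 1. With the Gapdh ratio as covariate they were 3 in TI day 4 and 9 in TD day 10, and the median for TI day 4 against TD day 10 was -0.039. With only the arrays compared, and so fewer arrays to estimate the spread, 0 members passed for TI day 4, 1 for TD day 10 and 0 for TD day 4. Replicate numbers showed no pairing (correlations of -0.217 to 0.121 between groups), and with a replicate block 1 member passed in TI day 4, 8 in each TD group and 11 in the germinal centre mean. Leaving out each array in turn gave 0 to 8 calls for TI day 4, 3 to 12 for TD day 10, 0 to 13 for TD day 4 and 8 to 18 for the germinal centre mean, and where a group kept a single array its spread was taken from the other groups. The medians against resting ran from 0.15 to 0.32 for TD day 10, 0.058 to 0.28 for TD day 4 and 0.037 to 0.27 for the germinal centre mean, each lowest without resting replicate 2. Apart from the fits on fewer arrays, the cause of these changes was not tested. For members with arrays under the floor, such as Cycs and Sdha, differences are limited by it.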

Other observations

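Atp5d, a subunit of the F1 head of ATP synthase, had 5 probe sets that did not move alike. At the one that stood for the gene it read 532 and 645 in TI day 4, 382 and 525 in TD day 10, 520 and 7 in TD day 4, and 500 and 569 in resting, and it was not called in any comparison by limma. At the probe set with the lowest mean it read -145 and 52 in TI day 4, -124 and 105 in TD day 10, 170 and -20 in TD day 4, and 241 and 286 in resting. That probe set was called lower in the germinal centre mean (log2 -1.46, limma adjusted p = 0.025), with 4 of 6 germinal centre arrays under the floor. The other 3 Atp5d probe sets were not called.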
